A study of Mus musculus with 12 samples.

Results

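*Gas6*, *Pros1*, *Axl*, *Tyro3* and *Mertk* encode the ligands and receptors of the TAM family, and their RNA levels are described here across 4 lines of mouse embryonic fibroblasts (MEFs). The 5 genes were taken by name from the 24453 genes of the deposited count table, and all 5 passed the filter on low counts that left 14026 genes for testing. The family was chosen by the measured count of *Gas6*, which differed between rho0 and the PNPase knockout clones in these libraries. The levels of *Gas6* are therefore given as a description, and it was tested only between the knockout clones. No member was tested between a knockout clone and rho0, the comparison that the choice used.

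TAM receptors are tyrosine kinases of the cell surface named after TYRO3, AXL and MERTK. Their ligands GAS6 and protein S, the product of *Pros1*, carry a domain of glutamates that are carboxylated in a reaction that needs vitamin K, and through it they bind phosphatidylserine on dying cells and membranes. GAS6 binds all of the receptors, whereas protein S acts mainly through TYRO3 and MERTK. The pathway is known for the uptake of dead cells and for damping innate immune responses, and AXL is the member best known in fibroblasts and other mesenchymal cells.

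RNA was sequenced from 12 libraries, 3 biological replicates of each line. TM6 is the parental line, an immortalized C57BL6/J MEF line with the genotype *Pnpt1* neo-flox/neo-flox, where *Pnpt1* encodes PNPase, an exoribonuclease of mitochondria. The rho0 line was derived from TM6 by ditercalinium dichloride dihydrochloride, a drug that depletes mitochondrial DNA (mtDNA), at 750 ng/mL over 3 weeks, and PKO-1 and PKO-6 were derived from TM6 by Adenoviral-Cre, which deletes the floxed part of *Pnpt1*. All 4 lines grew in medium with uridine at 50 µg/mL, and the study describes both knockout clones as having lost mtDNA too. The 3 derived lines each grew from a single cell colony, so each is 1 clone, and its replicates differ only as cultures of that clone do. A difference between lines therefore cannot be told apart from a difference between clones.

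Depth was 47164860 to 67991378 estimated counts per library. Normalized counts are counts divided by the library's relative TMM-scaled size, and a gene was called when the adjusted p from edgeR's quasi-likelihood test was below 0.01 and the absolute log2 fold change was above 0.5. *Pnpt1* itself was at 3131 ± 262 normalized counts in TM6, 5271 ± 230 in rho0, while PKO-1 held 1240 ± 44.3 and PKO-6 held 1944 ± 250 (mean ± SD, n = 3 here and throughout), over the whole gene and not only the deleted exon. Fibroblast markers summed to 6300 to 11700 CPM (counts scaled to the library total) in every library, led by *Fn1*, *Vim*, *Col1a1* and *Col1a2*. *Thy1* averaged at most 0.0499 CPM in any line. The sum hides differences between lines in its genes. *Col1a1* averaged 3230 CPM in TM6, 1090 in rho0, 1740 in PKO-1 and 680 in PKO-6. In the same order *Col3a1* was at 84.5, 8.44, 124 and 5.84, and *Pdgfra* at 6.06, 1.45, 57.2 and 7.35. *Fn1* was lowest in TM6, at 2010, 4220, 4590 and 3700 in that order. Macrophage markers, those of a cell type that uses *Mertk* and *Axl*, summed to 1.51 to 4.53 CPM, with *Adgre1* at 0 in all libraries. Endothelial markers summed to 0.361 to 3.14 CPM, epithelial markers to 1.89 to 14.9 CPM and neural and glial markers to 2.89 to 9.46 CPM.

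Both sequences shown here belong to results described below: the start of *Gas6*, the member that was nearly absent from rho0, and the alternative exon of *Axl*, the member with several transcripts. The 250 bases upstream of the *Gas6* start lie at chr8:13494536-13494785 on the minus strand (RefSeq, GRCm38.p6), written 5′ to 3′ with GC boxes (GGGCGG on either strand) in capitals.
Gas6 upstream: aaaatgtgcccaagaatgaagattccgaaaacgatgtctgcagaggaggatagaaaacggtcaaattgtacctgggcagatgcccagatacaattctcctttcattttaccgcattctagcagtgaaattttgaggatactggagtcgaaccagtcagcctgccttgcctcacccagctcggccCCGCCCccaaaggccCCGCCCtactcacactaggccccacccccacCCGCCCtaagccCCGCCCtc
Exon 10 of *Axl*, 27 coding bases at chr7:25773099-25773125 on the minus strand, is given in capitals between 20 bases of each neighbouring exon, as read from a GENCODE M21 transcript (GRCm38), and then without the exon.
Axl with exon 10: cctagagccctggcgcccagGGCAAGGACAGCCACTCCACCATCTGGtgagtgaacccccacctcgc
Axl without exon 10: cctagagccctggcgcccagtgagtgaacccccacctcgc

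RefSeq promoter windows of 300 bases, from 250 before to 50 after the start, were matched for all 5 members. The GC box was present in each of them, with 4 in *Gas6*, 5 in *Pros1*, 2 in *Axl*, 6 in *Tyro3* and 4 in *Mertk*, beside at least 1 in 35.7% of the 32851 promoters of the table. The TEAD core CATTCC was found in the *Axl* window alone, once, beside 14.7% of all promoters. TATAAA, the AP-1 letters TGANTCA and the E-box CACGTG were in no member's window and in 13.6%, 7.81% and 7.15% of all promoters. The windows held 17 CG dinucleotides in *Gas6*, 21 in *Pros1*, 6 in *Axl*, 31 in *Tyro3* and 14 in *Mertk*, against a median of 7, and each GC box itself contains a CG. These matches are letters in a window, and binding was not measured.

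*Gas6* RNA was high in TM6, intermediate in both knockout clones and nearly absent from rho0. *Gas6* (chr8:13465374-13494535, minus strand, mm10) was at 859, 824 and 827 normalized counts in the TM6 libraries. It was at 1.94, 7.76 and 3.35 in rho0, from raw counts of 2, 7 and 3. PKO-1 held 357, 302 and 328, and PKO-6 held 309, 314 and 277. The libraries of TM6, of the clones and of rho0 did not overlap, whereas those of PKO-1 and PKO-6 did. Over all tested genes, libraries of the compared lines did not overlap in 72.8% for rho0, 71.8% for PKO-1 and 71.9% for PKO-6 against TM6, in 66.5% between the clones, and in 69.5% for PKO-1 and 56.7% for PKO-6 against rho0.

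The line means of *Gas6* were 837 ± 19.6 in TM6, 4.35 ± 3.04 in rho0, 329 ± 27.3 in PKO-1 and, for PKO-6, 300.01 ± 19.9 normalized counts. With all libraries of a line summed, the normalized level in TM6 was 198 times that in rho0, with a 95% interval of 113 to 383 that covers counting error only, from 2686 against 12 raw counts. The same ratio to rho0 was 77.4 in PKO-1 (interval 44.1 to 150) and 70.8 in PKO-6 (interval 40.4 to 138). The fitted log2 fold change against TM6 was -7.58 in rho0 (SE 0.20), the 66th lowest of the 14026 tested genes. It was -1.35 in PKO-1 and -1.48 in PKO-6 (SE 0.12 each). The SE in rho0, derived from the F statistic, understates the error at 12 raw counts. The counting interval above is wider than this SE implies. Against rho0 the log2 fold change was 6.23 for PKO-1 and 6.10 for PKO-6, the 13th and the 43rd highest of all tested genes. With 12 raw counts in rho0, the fold changes before the log move by more than 1.5 times without rho0 replicate 2. The log2 fold changes then become -8.29 for rho0 against TM6, 6.91 for PKO-1 against rho0 and 6.78 for PKO-6 against rho0.

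No difference in *Gas6* was detected between PKO-1 and PKO-6. The log2 fold change of PKO-1 against PKO-6 was 0.13 (SE 0.118, 95% interval -0.12 to 0.39, edgeR adjusted p = 0.35). This was the only test made of *Gas6*, and 29.1% of all tested genes were called between the clones. The sign of this small value is not stable: it is -0.16 once the median of chromosome 8 is subtracted.

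**Figure D1:**
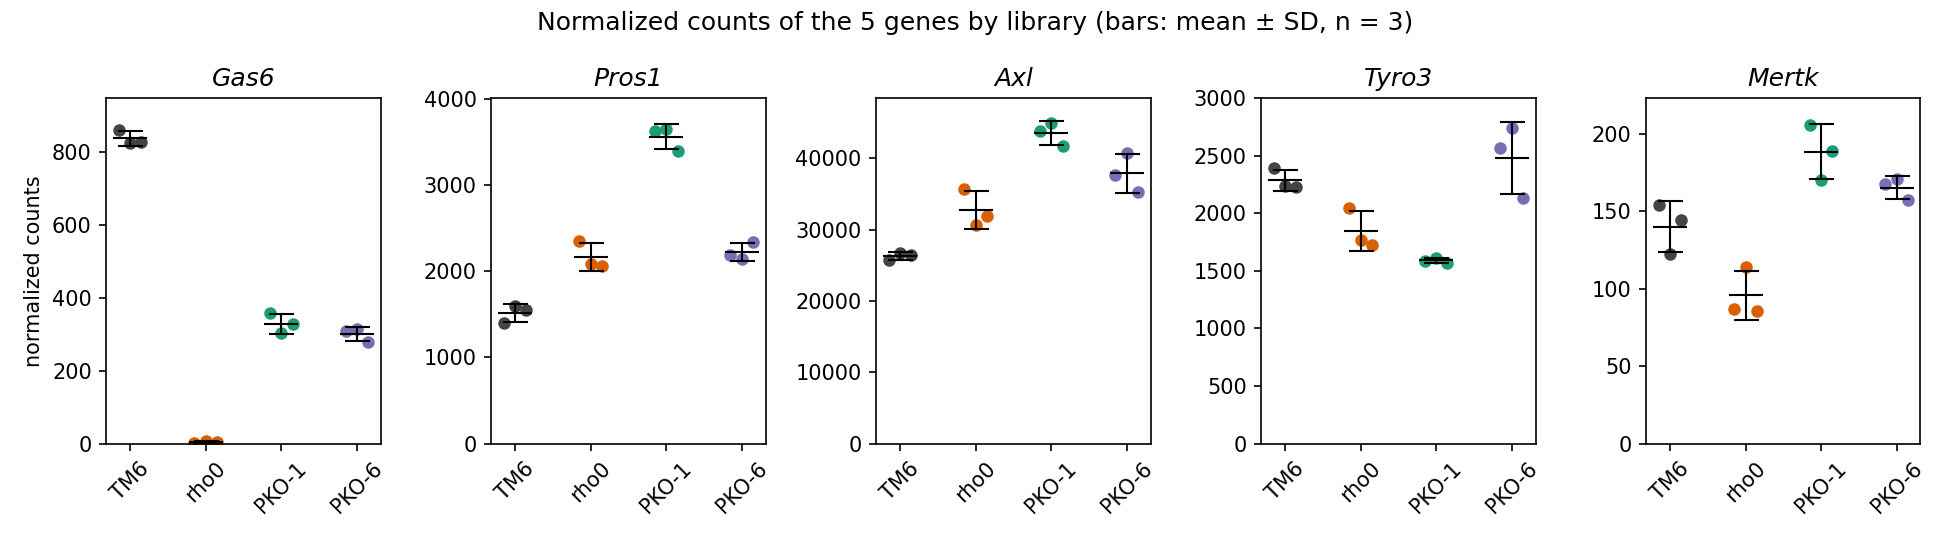
Normalized counts (vertical axis, linear, from 0, on a separate scale for each gene) of the 5 genes in each library of TM6, rho0, PKO-1 and PKO-6; points are libraries and bars are the mean ± SD of 3. *Gas6* lies at 824 to 859 in TM6 and at 1.94 to 7.76 in rho0, while *Pros1* and *Axl* are lowest in TM6 and highest in PKO-1.

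*Pros1*, the gene of protein S, was higher than TM6 in all 3 derived lines, most of all in PKO-1. *Pros1* (chr16:62854307-62929342, plus strand) was at 1405, 1602 and 1545 normalized counts in TM6. It was at 2349, 2082 and 2056 in rho0, at 3631, 3654 and 3394 in PKO-1, and at 2189, 2139 and 2339 in PKO-6. All TM6 libraries were below every other library and all PKO-1 libraries above every other, while rho0 and PKO-6 overlapped.

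The log2 fold change of *Pros1* against TM6 was 1.23 in PKO-1 (SE 0.067, edgeR adjusted p = 2.23e-09), 0.55 in PKO-6 (SE 0.067, adjusted p = 5.15e-06) and 0.51 in rho0 (SE 0.067, adjusted p = 1.13e-05), and all were called. The calls in rho0 and PKO-6 sit close to the size threshold of 0.5. The rho0 call was lost without TM6 replicate 1 (lowest value 0.43), rho0 replicate 1, PKO-6 replicate 1 or PKO-6 replicate 2, and the PKO-6 call was lost without TM6 replicate 1 (0.46); in each case the adjusted p stayed below its threshold. The rho0 call was also lost by size in a fit of TM6 and rho0 alone and without *Rn45s*, the ribosomal precursor (0.49 each). *Pros1* was also higher in PKO-1 than in PKO-6, by a log2 fold change of 0.68 (SE 0.0659, adjusted p = 8.97e-07), or 0.48 with the median of chromosome 16 subtracted. Against rho0, which was not tested, the log2 fold change was 0.72 in PKO-1 and 0.04 in PKO-6.

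*Axl*, the receptor with by far the highest counts, was higher than TM6 in both knockout clones. *Axl* (chr7:25756500-25788733, minus strand) was at 25735, 26739 and 26439 normalized counts in TM6 and at 35726, 30588.5 and 31879 in rho0. It was at 43792, 44992.5 and 41736 in PKO-1 and at 37637, 40703 and 35245.5 in PKO-6. Every derived library was above every TM6 library, and every PKO-1 library was above those of PKO-6, while rho0 and PKO-6 overlapped.

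The log2 fold change of *Axl* against TM6 was 0.73 in PKO-1 (SE 0.0705, edgeR adjusted p = 7.77e-07) and 0.53 in PKO-6 (SE 0.0703, adjusted p = 1.35e-05), both called. In rho0 it was 0.32 (SE 0.07, adjusted p = 0.00115), past the threshold on p but under the one on size. Of 12 fits with a library left out, 6 lost the PKO-6 call (TM6 replicate 1, any rho0 replicate, PKO-6 replicate 1 or 2), with values down to 0.44, and likewise in a fit of TM6 and PKO-6 alone and without *Rn45s* (0.49 each). The difference between the clones, 0.20 (SE 0.0701, interval 0.05 to 0.35, adjusted p = 0.0239), was not called.

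*Tyro3* separated the knockout clones from each other. *Tyro3* (chr2:119797740-119818103, plus strand) was at 2392, 2236 and 2224 normalized counts in TM6, and at 2048, 1771 and 1721 in rho0. It was at 1588, 1611 and 1570 in PKO-1, below all other libraries, and at 2569, 2742 and 2130 in PKO-6, which overlapped with TM6. The log2 fold change against TM6 was -0.52 in PKO-1 (SE 0.0864, edgeR adjusted p = 0.000117, called), -0.31 in rho0 (SE 0.0858, adjusted p = 0.00564, under the size threshold) and 0.12 in PKO-6 (SE 0.085, interval -0.06 to 0.30, adjusted p = 0.229). With the median of chromosome 2 subtracted, the value in PKO-1 was -0.44, under the size threshold. With both clones pooled, *Tyro3* was at -0.17 against TM6 (adjusted p = 0.477), so the call of PKO-1 is not seen there. Between the clones the log2 fold change of PKO-1 against PKO-6 was -0.64 (SE 0.0863, adjusted p = 2.11e-05), which was called.

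*Mertk*, the receptor best known from macrophages, was the least abundant receptor. *Mertk* (chr2:128698997-128802188, plus strand) was at 154, 122 and 145 normalized counts in TM6, and at 87.2, 114 and 86.0 in rho0, all below TM6. PKO-1 held 206, 170.4 and 189 and PKO-6 held 168, 171 and 157, and the libraries of the clones overlapped with each other. *Mertk* fell in rho0 against TM6, with a log2 fold change of -0.55 (SE 0.142, edgeR adjusted p = 0.00312). That call was lost without TM6 replicate 1 or 3, or without rho0 replicate 1 or 3 (values -0.72 to -0.50 over all omissions), and in a fit of TM6 and rho0 alone (adjusted p = 0.0136). In PKO-1 the value was 0.42 (SE 0.135, adjusted p = 0.0136) and in PKO-6 0.24 (SE 0.135, adjusted p = 0.134), neither called. Between the clones it was 0.19 (SE 0.134, interval -0.10 to 0.48, adjusted p = 0.24). The summed macrophage markers beside these values were 1.51 to 2.04 CPM in TM6, 1.77 to 3.05 in rho0, 1.66 to 1.96 in PKO-1 and 4.15 to 4.53 in PKO-6, with *Ptprc* at or below 0.0189 CPM in every line.

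Of the 4 members tested against TM6, 2 were called in rho0 (*Pros1* higher, *Mertk* lower), beside 42.1% of all tested genes. In PKO-1, 3 were called (*Pros1* and *Axl* higher, *Tyro3* lower), beside 34.3%, and in PKO-6, 2 were called (*Pros1* and *Axl*, both higher), beside 41.3%. These comparisons share the TM6 libraries. Of the 5 members tested between the clones, 2 were called, beside 29.1%. Against rho0, where 32.7% of all genes were called for PKO-1 and 21.5% for PKO-6, the untested log2 fold changes of the receptors were 0.41 for *Axl*, -0.22 for *Tyro3* and 0.98 for *Mertk* in PKO-1, and 0.21, 0.43 and 0.79 in PKO-6. In bulk RNA, fewer cells that express a gene and less RNA per cell cannot be told apart.

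**Figure D2:**
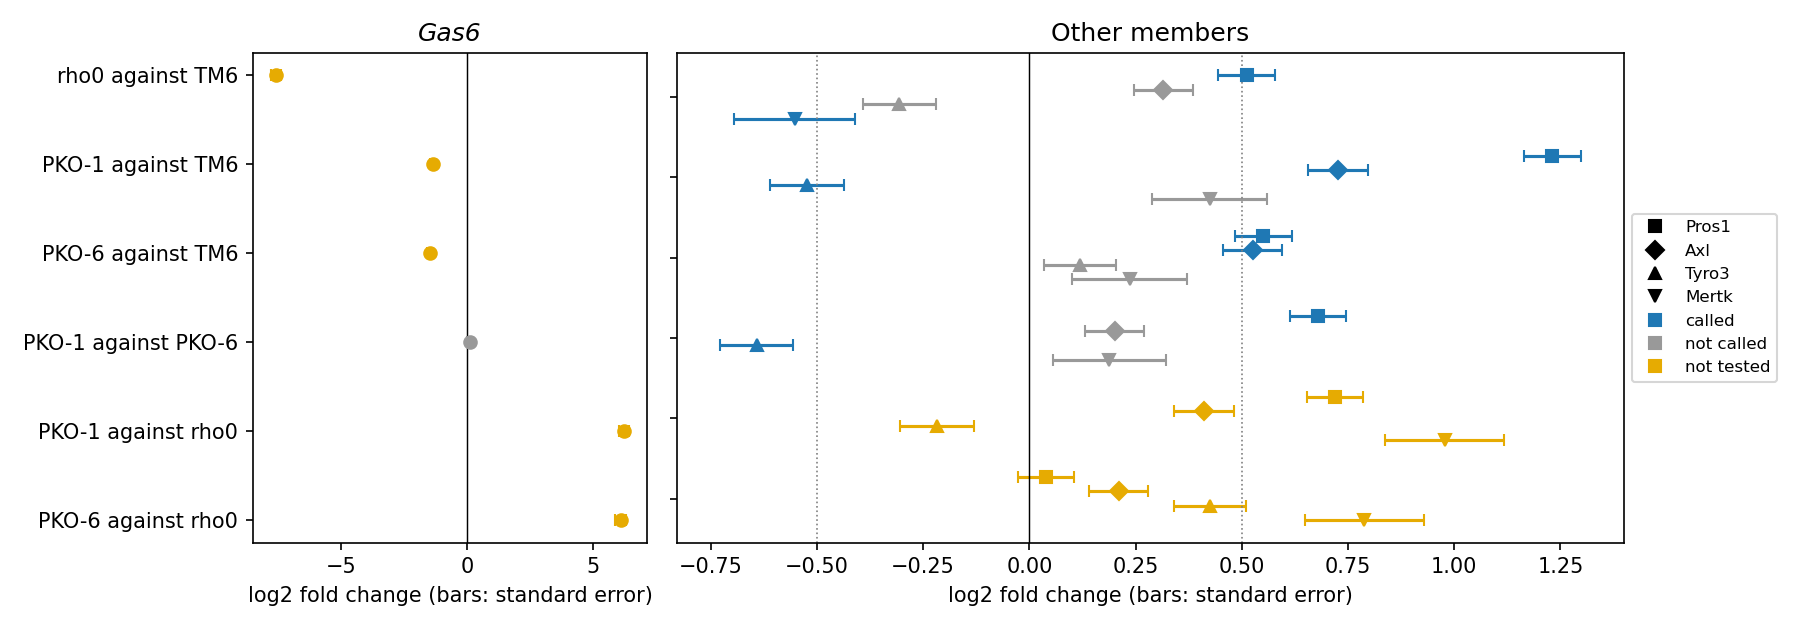
Log2 fold changes (horizontal axis) with standard errors of *Gas6* (left) and of the other 4 genes (right) in 6 comparisons of lines; blue marks called genes, grey tested genes that were not called, yellow values that were not tested, and dotted lines the size threshold of 0.5. *Gas6* spans -7.58 to 6.23, while the other members lie between -0.64 and 1.23. The bars of *Gas6* in comparisons with rho0 understate the error, since rho0 held 12 raw counts.

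Levels of different genes were compared per kilobase (kb) of effective transcript length. *Axl* led in every line, at 5413 ± 113 normalized counts per kb in TM6, 6707 ± 535 in rho0, 8924 ± 336 in PKO-1 and 7771 ± 545 in PKO-6. In TM6 the order was *Axl*, *Tyro3* (601 ± 23.9), *Pros1* (487 ± 33.2), *Gas6* (348 ± 7.37) and *Mertk* (41.6 ± 4.79). In rho0 *Gas6* came last, at 1.81 ± 1.26, below *Mertk* at 28.4 ± 4.76, and *Pros1* (694 ± 50.1) stood above *Tyro3* (485 ± 45.1). Both clones had the order *Axl*, *Pros1*, *Tyro3*, *Gas6*, *Mertk*. In PKO-6 the libraries of *Pros1* (684 to 753) and *Tyro3* (561 to 719) overlapped, so that their order there is within the spread. The order was the same in each line with annotated length and with the deposited TPM values.

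**Figure D3:**
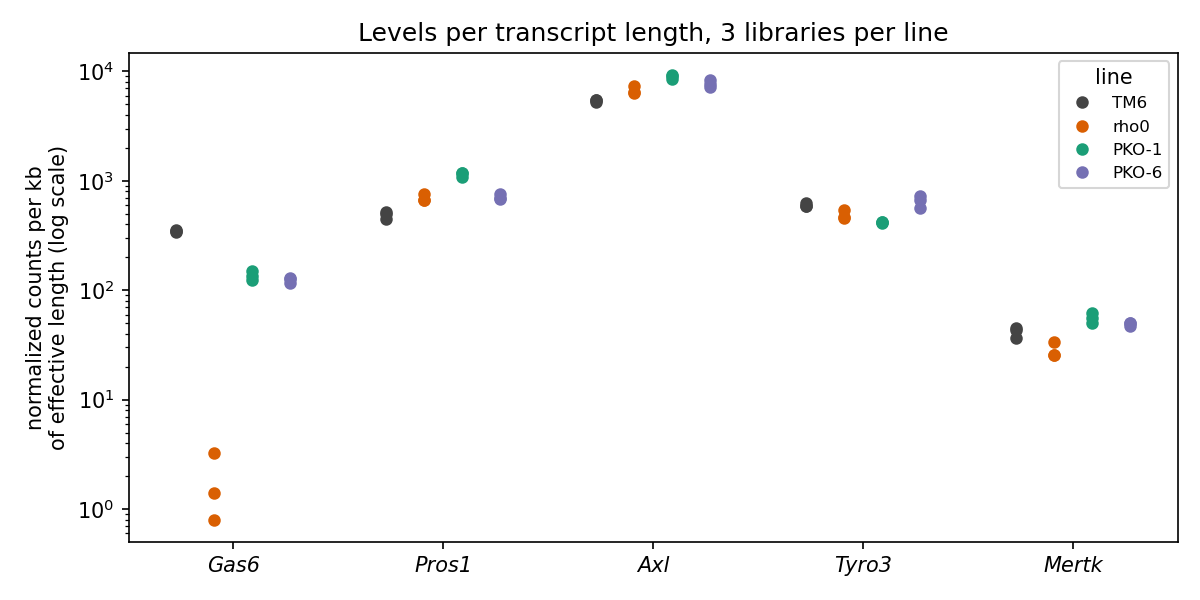
Normalized counts per kb of effective transcript length (vertical axis, log scale) of the 5 genes in each library, coloured by line. *Axl* lies above all other members in every line, and *Gas6* in rho0 lies below all other points.

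The makeup of ligands and receptors by these levels per kb also differed between lines. *Pros1* was 58.3 ± 2.20% of the ligand level in TM6, 99.7 ± 0.193% in rho0, 89.3 ± 0.893% in PKO-1 and, for PKO-6, 85.1 ± 1.40%. The summed ligand level was nevertheless 835 ± 26.0 per kb in TM6 and 837 ± 28.2 in PKO-6, with 696 ± 49.4 in rho0 and 1281 ± 48.9 in PKO-1. *Axl* was 89.4 ± 0.604% of the receptor level in TM6, 92.9 ± 0.281% in rho0, 94.95 ± 0.155% in PKO-1 and 91.7 ± 0.455% in PKO-6, and *Tyro3* was 9.92%, 6.72%, 4.45% and 7.67% in the same order. These shares follow from the levels above and were not tested.

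*Axl* was the member with several well expressed transcripts in the deposited estimates. The form with all 20 exons held 71.9 ± 2.43% of *Axl* counts in TM6, 76.9 ± 0.790% in rho0, 80.8 ± 0.608% in PKO-1 and, for PKO-6, 71.7 ± 0.868%. The form without exon 10, the exon printed above, held 16.8 ± 0.985%, 17.7 ± 1.06%, 13.2 ± 0.390% and 20.2 ± 1.08% in the same order. The form without exons 8 and 9, coding exons of 140 and 151 bases, held 11.3 ± 1.46% in TM6, 5.35 ± 0.271% in rho0, 5.99 ± 0.223% in PKO-1 and 8.09 ± 1.06% in PKO-6.

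Among the first 2 forms alone, exon 10 was included in 81.0 ± 1.43% of *Axl* counts in TM6, 81.3 ± 1.06% in rho0, 86.0 ± 0.447% in PKO-1 and, for PKO-6, 77.98 ± 1.02%. The PKO-1 libraries (85.5 to 86.3%) were above and the PKO-6 libraries (77.2 to 79.1%) below all others, while TM6 (79.4 to 82.0%) and rho0 (80.1 to 82.0%) overlapped. Estimated shares of overlapping transcripts carry an assignment error that the files do not give. The second *Tyro3* transcript held at most 0.42% of *Tyro3* counts, and the other members have 1 deposited transcript each.

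**Figure D4:**
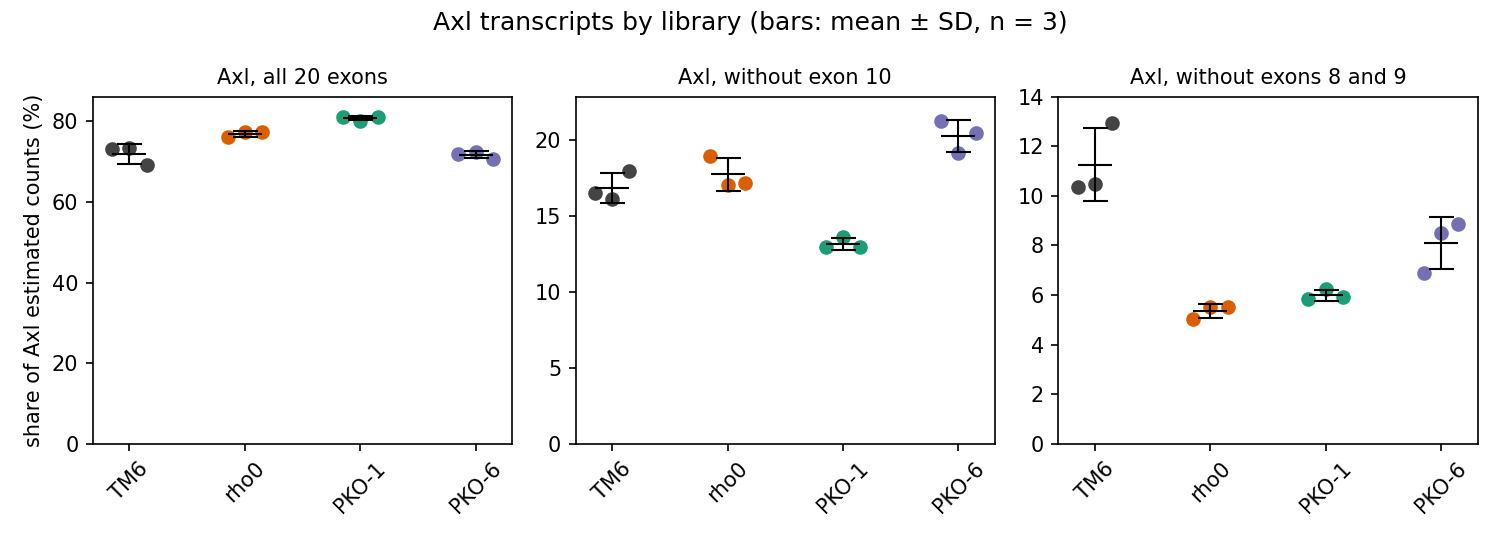
Share of *Axl* estimated counts (percent, vertical axes from 0 and on separate scales) on each of its 3 deposited transcripts by line; points are libraries and bars are the mean ± SD of 3. The form without exons 8 and 9 is at 10.3 to 12.9% in TM6 and lower in every derived library.

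The genes around *Gas6* did not show a loss of its size in rho0. Of the 3 nearest tested genes on each side, *Rasa3*, a regulator of Ras, was called lower in rho0 against TM6 (log2 fold change -0.61, edgeR adjusted p = 4.62e-07), and *Tmco3* (-0.43), *Tfdp1* (-0.33), *Grk1* (0.89), *Cdc16* (-0.08) and *Upf3a* (0.17) were not called. In PKO-6, *Tmco3* (-0.67), *Tfdp1* (-0.52) and *Upf3a* (-0.52) were called lower, and in PKO-1 none of the 6 was called. The median log2 fold change of the 22 other tested genes within 1 Mb was -0.17 in rho0, -0.20 in PKO-1 and, for PKO-6, -0.47. The lowest of them was *Dlgap2* in each line, at -2.36, -2.66 and -4.63, named here after its values were seen.

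The medians over 739 genes of chromosome 8 were -0.18 in rho0, -0.11 in PKO-1 and -0.43 in PKO-6 against TM6. On the chromosomes of the other members, the medians furthest from 0 were 0.14 in rho0 (chromosome 7), 0.17 in PKO-1 (chromosome 16) and -0.09 in PKO-6 (chromosome 2). With the medians of chromosome 8 subtracted, *Gas6* is at -1.23 in PKO-1 and -1.05 in PKO-6. What the shift of chromosome 8 contributes to *Gas6* was not tested. In the GENCODE annotation *Gas6* overlaps *Tmem255b* on the opposite strand, whose deposited model does not overlap it and has 0 counts in all libraries. *Mertk* overlaps the antisense gene *Gm14011* and the snoRNA *Gm23172*. Whether counting used strand is not stated in the sources used here.

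**Figure D5:**
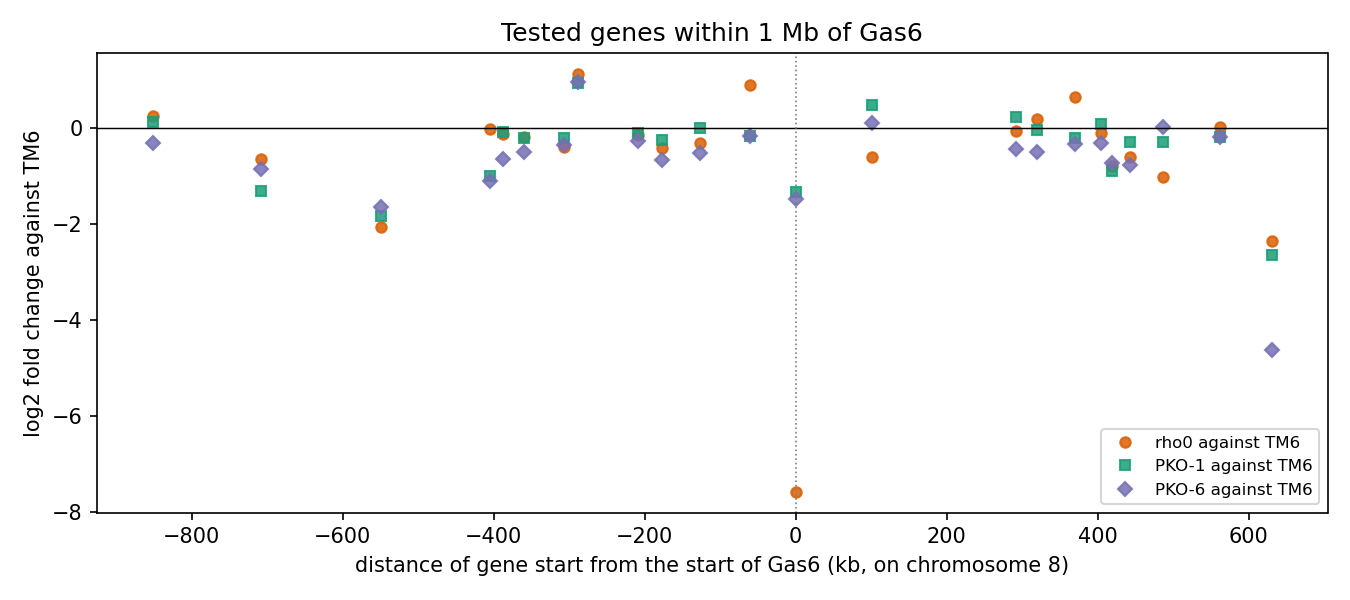
Log2 fold changes against TM6 (vertical axis) of the 23 tested genes within 1 Mb of *Gas6*, by the distance of their starts from that of *Gas6* in kb, for rho0, PKO-1 and PKO-6. *Gas6* at 0 kb is at -7.58 in rho0, and the next lowest rho0 value in the window is -2.36.

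A list of 72 genes that make, cut, follow or accompany TAM signalling, in 7 groups, was then read, and 56 of them were tested. In rho0 against TM6, 5 were called higher and 22 lower (48.2% of the 56), beside 42.1% of all tested genes (20.7% higher, 21.4% lower), and their median log2 fold change was -0.37 against 0.02 for all genes. In PKO-1, 11 rose and 13 fell (42.9%, beside 34.3% of all genes, 16.4% higher and 17.9% lower), with a median of -0.06. In PKO-6, 6 rose and 11 fell (30.4%, beside 41.3% of all genes, 21.9% higher and 19.4% lower), with a median of -0.11. Between the clones, 11 were higher and 9 lower in PKO-1 (35.7%, beside 29.1% of all genes, 11.5% higher and 17.6% lower).

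The vitamin K cycle, which equips GAS6 and protein S to bind phosphatidylserine, held 5 tested genes. Of these, 3 fell in rho0 (60%), 1 rose in PKO-1 (20%) and none was called in PKO-6. Over all tested genes, 42.1%, 34.3% and 41.3% were called in the same lines. In PKO-6, *Calu* (log2 fold change -0.47), *Vkorc1l1* (-0.35), *Vkorc1* (-0.46) and *Nqo1* (-0.34) were lower, past the threshold on p but under the one on size. The same held for *Calu* in rho0 (-0.40). In PKO-1, *Ggcx* (0.43) and *Calu* (0.38) were higher and likewise missed the call by size. *Ggcx*, the carboxylase itself, was not called against TM6 in any line (log2 fold changes -0.10 in rho0, 0.43 in PKO-1 and 0.08 in PKO-6). *Vkorc1*, the vitamin K reductase, fell in rho0 (-0.54, edgeR adjusted p = 0.00163), as did its relative *Vkorc1l1* (-0.64, adjusted p = 5.54e-08). Neither was called in the clones, where *Vkorc1* was at 0.20 in PKO-1 and -0.46 in PKO-6 and *Vkorc1l1* at -0.083 and -0.35. *Nqo1*, a quinone reductase, fell in rho0 (-0.51) and rose in PKO-1 (1.86). It had 3763 ± 342 normalized counts in PKO-1 against 823 ± 101 in PKO-6, a log2 fold change of 2.20 (adjusted p = 3.92e-10). *Calu*, encoding the carboxylation inhibitor calumenin, and *Vkorc1* were also higher in PKO-1 than in PKO-6, by 0.85 and 0.66.

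Of 13 other vitamin K dependent proteins 5 were tested, and the untested ones include clotting factors made in the liver. *Mgp*, encoding the calcification inhibitor matrix Gla protein, went both ways: against TM6 it fell in rho0 (log2 fold change -2.17) and PKO-6 (-1.27) and rose in PKO-1 (1.58). The genes of 2 membrane proteins rose in every derived line, *Prrg4* by log2 fold changes of 0.65 in rho0, 1.21 in PKO-1 and 1.78 in PKO-6, and *Prrg1* by 0.54, 0.996 and 0.53 in the same order.

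Of the proteases that shed AXL and MERTK from the cell surface, *Adam10* and *Adam17* were called in opposite directions in PKO-1 only. *Adam10* fell in all 3 derived lines, by log2 fold changes of -0.68 in rho0, -0.80 in PKO-1 and -0.65 in PKO-6. *Adam17* rose in PKO-1 (0.62, edgeR adjusted p = 3.09e-07) and stood at 0.11 in rho0 and 0.34 in PKO-6, not called. *Timp3*, an inhibitor of these proteases, rose in rho0 (0.90) and PKO-1 (0.60) and was at -0.11 in PKO-6. *Furin*, a convertase that activates their precursors, fell in rho0 (-0.69) and was at -0.28 in PKO-1 and -0.42 in PKO-6, not called. Of the 6 genes in this group, 3 were called in rho0 (50%), 4 in PKO-1 (66.7%) and 1 in PKO-6 (16.7%). Over all tested genes, 42.1%, 34.3% and 41.3% were called in the same lines.

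The group of other ligands and bridging proteins includes *Edil3* and *Mfge8*, whose products link phosphatidylserine to integrins. *Edil3* rose in PKO-1 (log2 fold change 1.52, with 0.13 in rho0 and 0.15 in PKO-6, not called) and *Mfge8* fell in rho0 (-0.51). *Mfge8* was at -0.24 in PKO-1 and -0.16 in PKO-6, neither called. These were the only calls against TM6 among the 3 tested genes of the group. The shares called were 33.3% in rho0, 33.3% in PKO-1 and 0% in PKO-6, beside 42.1%, 34.3% and 41.3% of all tested genes.

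Of 17 tested genes of intracellular signalling, 5 fell and none rose in rho0, 5 fell and 2 rose in PKO-1, and 3 fell in PKO-6. The shares called were 29.4%, 41.2% and 17.6%, beside 42.1%, 34.3% and 41.3% of all tested genes. *Nck2*, an adaptor protein, was at 783 ± 23.8 normalized counts in TM6, 338 ± 22.9 in rho0, 105 ± 3.19 in PKO-1 and 902 ± 82.4 in PKO-6, a log2 fold change of -3.10 between the clones. *Socs3*, a feedback inhibitor of cytokine signalling, fell in rho0 (log2 fold change -0.83) and PKO-6 (-1.25) and was at -0.28 in PKO-1, not called. Both *Tns2*, encoding a tensin, and *Pik3r1*, the regulatory subunit of PI3 kinase, fell in every derived line. *Tns2* changed by -1.01 in rho0, -0.56 in PKO-1 and -0.72 in PKO-6, and *Pik3r1* by -0.54, -0.76 and -0.996.

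Of 14 tested engulfment genes, 6 fell and 2 rose in rho0, 2 fell and 1 rose in PKO-1, and 3 fell and 4 rose in PKO-6. The shares called were 57.1%, 21.4% and 50%, beside 42.1%, 34.3% and 41.3% of all tested genes. *Elmo1*, which with DOCK1 activates RAC1, was at 61.6 ± 11.2 normalized counts in TM6, 799 ± 53.8 in rho0, 121 ± 8.83 in PKO-1 and 467 ± 13.4 in PKO-6, and it was called higher in each derived line. The integrin gene *Itgb3* rose in PKO-6 (log2 fold change 1.37) but fell in rho0 (-0.94, edgeR adjusted p = 0.00303), and was at 0.56 in PKO-1, not called. The adaptor gene *Bcar1* fell in every derived line, by -0.83 in rho0, -0.70 in PKO-1 and -0.95 in PKO-6. *Gulp1*, another adaptor, fell in rho0 (-0.999) and PKO-6 (-1.11) and was at -0.48 in PKO-1, not called.

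Of 6 tested genes of phosphatidylserine exposure, 4 were called lower in rho0, 5 in PKO-1 and 3 in PKO-6, and none higher, beside 21.4%, 17.9% and 19.4% of all tested genes called lower. The group itself was not tested, and these comparisons share the TM6 libraries. The members act in opposite ways on exposure, since *Atp11a* encodes a flippase that keeps the lipid inside and *Ano6* a scramblase that exposes it. *Ano6* fell by log2 fold changes of -0.74 in rho0, -0.81 in PKO-1 and -1.13 in PKO-6. *Atp11a* fell as well, by log2 fold changes of -0.66, -1.31 and -0.86 in the same order. *Plscr1*, encoding a phospholipid scramblase, fell in PKO-1 alone by call (-1.23), with -0.43 in rho0 and -0.02 in PKO-6.

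Over the 12 libraries, the genes whose log2 CPM followed *Gas6* most closely were *Fhod3* (Pearson r = 0.989), *Mgat3* (0.987), *Gata4* (0.985), *Dnmt3a* (0.985) and *Tnfrsf23* (0.984), out of 11204 genes whose mean reached 100 normalized counts. The 12 points are 4 lines of 3 cultures each, so this is a description of 4 levels, and 60 genes had an r above 0.95. *Mgat3* was at 1722 ± 77.1 normalized counts in TM6, 185 ± 21.0 in rho0, and PKO-1 (1061 ± 59.7) and PKO-6 (1091 ± 40.5) lay between. None of the 5 was among the closest 5 by Spearman's rho or over the 4 line means. The r of the other members with *Gas6* was -0.0902 for *Pros1*, -0.0432 for *Axl*, 0.314 for *Tyro3* and 0.791 for *Mertk*.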

How the data were processed

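RNA-Seq of 12 libraries, 3 from each of 4 lines, was analysed. Total RNA was depleted of rRNA by the authors, and reads of technical duplicate, stranded libraries were merged. The gene table holds expected counts without normalization, obtained by the authors with RSEM 1.2.25 and bowtie2 on RefSeq transcripts of mm10 (GRCm38). The TPM values, effective lengths and estimated counts per transcript were deposited for each library. Counts had decimals in 12.5% of values and were rounded. Members and gene lists were chosen with earlier results of these data known.

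Tests used edgeR 4.0.16 in R 4.3.3: 14026 genes passed filterByExpr (minimum count 10), scaling was by TMM, and lines were compared by the quasi-likelihood test in 1 fit of all 12 libraries, with Benjamini-Hochberg adjustment over all tested genes. Scale factors were 0.84 to 1.221, and *Rn45s* took 12.2% to 19.6% of counts. Intervals of summed counts cover counting error only. Standard errors were derived from the F statistic. The study pooled the clones and used DESeq2, which was an alternative here (version 1.42.0). Named genes were all members, *Pnpt1*, of each pathway group up to 4 called genes with the largest change in any tested comparison and a mean of at least 100 normalized counts, *Ggcx*, *Vkorc1*, *Adam10*, *Adam17* and *Mfge8*, 3 neighbours of *Gas6* on each side, and the 5 genes most like *Gas6*. A gene that this rule admits is withheld for evaluation and is not reported here. Alternatives were DESeq2's size factors and Wald test, no filter, a replicate block, the compared lines alone, both clones pooled, *Rn45s* left out, chromosome medians removed, a log2 threshold of 1, other measures of likeness and length, and each library left out. The test was tried on simulated data.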

Additional observations from a re-analysis of the deposited data

Results flagged for a closer look

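Between the knockout clones, each grown from a single cell, 2 of the 5 members differed by the test of PKO-1 against PKO-6. Over all tested genes, 29.1% were called between the clones, and in 66.5% the libraries of the clones did not overlap. A difference between clones cannot be assigned to the knockout. For *Pros1* the log2 fold change between the clones was 0.68, with all 3 PKO-1 libraries above all 3 PKO-6 libraries (edgeR adjusted p = 8.97e-07). It was 0.48, under the size threshold, with the median of chromosome 16 subtracted. For *Tyro3* the log2 fold change between the clones was -0.64, with all 3 PKO-1 libraries below those of PKO-6 (adjusted p = 2.11e-05). Against TM6 *Tyro3* was called in PKO-1 (-0.52), while the PKO-6 value of 0.12 had an interval of -0.06 to 0.30. The lines have 3 libraries each, so no library was assessed as an outlier.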

How the results depend on the processing

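No call or direction of a member changed with the Wald test or size factors of DESeq2 or without a filter on low counts. With both clones pooled, the log2 fold change against TM6 was 0.93 for *Pros1* and 0.63 for *Axl*, both called, and 0.33 for *Mertk* and -0.17 for *Tyro3* (edgeR adjusted p = 0.0866 and 0.477), not called. The pooled *Tyro3* value combines clones whose separate values differed in sign (-0.52 for PKO-1, called, and 0.12 for PKO-6, not called). It is not a new estimate for either clone. The replicate block changed no call either: with it *Pros1* in rho0 against TM6 was at 0.51. Of the 18 correlations of same-numbered libraries between lines (-0.385 to 0.25), 10 exceeded 0.1. With values of both signs, this check does not decide whether the numbers pair the samples. With only the compared lines fitted, calls were lost for *Pros1* in rho0 (0.49) and *Axl* in PKO-6 (0.49) by size and for *Mertk* in rho0 (-0.57) by p. Without *Rn45s*, *Pros1* in rho0 (0.49) and *Axl* in PKO-6 (0.49) fell just under the size threshold.

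Removing chromosome medians, a value with no test, moved these log2 fold changes by more than the replicate spread. Against TM6 they became 0.18 for *Axl* in rho0, -1.23 for *Gas6*, 1.06 for *Pros1*, 0.61 for *Axl* and -0.44 for *Tyro3* in PKO-1, and -1.05 for *Gas6* in PKO-6. Between the clones they became -0.16 for *Gas6*, which turned sign, 0.48 for *Pros1* and 0.093 for *Axl*. Against rho0 they became 0.62 for *Pros1* in PKO-1, 0.15 for *Pros1* in PKO-6 and 0.35 for *Axl* in PKO-6.

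With a threshold of 1 on the log2 scale, called genes numbered 2944 for rho0, 2274 for PKO-1 and 3038 for PKO-6 against TM6, 1950 between the clones, and 2202 for PKO-1 and 1510 for PKO-6 against rho0, compared with 5902, 4810, 5799, 4087, 4590 and 3014. The omission of single libraries gave ranges of 0.43 to 0.55 for *Pros1*, -0.72 to -0.50 for *Mertk* and -8.29 to -7.22 for *Gas6* in rho0 against TM6. They were 0.46 to 0.59 for *Pros1* and 0.44 to 0.57 for *Axl* in PKO-6 against TM6, and 5.84 to 6.91 for *Gas6* in PKO-1, 5.70 to 6.78 for *Gas6* in PKO-6 and -0.010 to 0.083 for *Pros1* in PKO-6, all against rho0. The cause of these changes was not tested. A level of *Gas6* in rho0 rests on 12 raw counts, which limits every ratio to it.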
